A study of Mus musculus with 15 samples.

Results

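Ctla4, Icos, Cd28 and Lrba encode 3 receptors of the CD28 family, CTLA-4, ICOS and CD28, and LRBA, a protein that controls how much CTLA-4 a T cell keeps. The members were taken by gene symbol, 1 table row each through the Ensembl identifier, and are 4 of the 30949 genes listed in all 15 libraries. Each library was an RNA sample of mouse regulatory T (Treg) cells sorted as CD25+CD39+ from female Foxp3 YFP-Cre/+ Dock8 flox/flox mice on C57BL/6, out of their lymph nodes and spleens. The design text adds CD4+ to this gate and the growth protocol CD3+. The cells were kept for 16 hours in medium alone or with beads coated with antibodies to CD3 and CD28, at 1 bead per cell, and libraries were made with Smart-Seq2.

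The groups were KO cells with beads (n = 2), WT cells with beads (n = 3), unstimulated KO cells (n = 6) and unstimulated WT cells (n = 4). KO cells were YFP+, so they expressed the Foxp3 allele that also makes the YFP-Cre fusion, which deletes the floxed Dock8 segment. WT cells were the YFP- Treg cells of mice with the same genotype. By this design they would carry unrecombined floxed Dock8 and have the other, unmodified Foxp3 allele active, which was not measured here. Every group therefore came from mosaic females in which X inactivation decides which allele a Treg cell uses, and Cre and YFP differ between the genotypes together with Dock8. Whether the samples, named independent in the labels, came from separate mice or cultures is not said, and p-values here measure their spread, which may be technical.

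CD28 is the main costimulatory receptor of T cells and binds CD80 and CD86 on antigen-presenting cells. CTLA-4 binds the same ligands more tightly, strips them from those cells, and is present in Treg cells without stimulation. ICOS is a costimulatory receptor with a ligand of its own, ICOSL, and marks activated and effector Treg cells. CTLA-4 cycles between the surface and endosomes, and LRBA, a BEACH-domain protein, binds its tail and spares it from lysosomal breakdown. The values here are mRNA levels and do not measure protein, surface amount or trafficking. In bulk RNA, fewer cells of a type and less RNA per cell cannot be told apart.

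Values are TPM, a level per transcript length and library size, as the authors deposited them. The depth of a library cannot be read from them and is unknown. Dock8 itself was listed at 5.82 and 7.90 TPM in KO cells with beads, against 8.71 to 10.1 TPM in WT cells with beads, and at 6.70 to 11.9 TPM in unstimulated KO cells, against 9.15 to 22.0 TPM in unstimulated WT cells. Without beads, KO minus WT was -0.67 in log2(TPM + 1) (two-sided exact permutation test, p = 0.0190). It was -0.46 without WT library 3 (exact permutation p = 0.0714) and -0.32 after scaling to 815 abundant genes (exact permutation p = 0.129). With beads the difference was -0.39, where 2 against 3 libraries cannot give an exact permutation p below 0.1, the value found. A gene-level TPM counts fragments from the exons outside the deleted segment too. A set of 55 predicted genes, each averaging 1000 TPM or more, took 19.4 to 26.3% of all TPM in KO cells with beads, 14.5 to 20.2% in WT cells with beads, 36.7 to 57.6% in unstimulated KO cells and 24.5 to 45.4% in unstimulated WT cells. This share moved with both genotype and beads, and values without the 3 KO libraries over 50% are given where they bear on a result. Treg and T cell markers were present in every library, with 7 of 7 markers listed and summed levels of 793 to 809, 825 to 848, 366 to 574 and 533 to 943 TPM in the same order of groups. All 5 B cell markers were listed, with sums of 10.2 to 12.5, 4.22 to 16.1, 9.68 to 32.1 and 10.4 to 20.7 TPM. Of 6 dendritic and myeloid markers 5 were listed, with sums of 2.48 to 3.99, 1.15 to 3.91, 2.19 to 21.0 and 2.98 to 9.28 TPM. All 5 CD8 T and NK cell markers were listed, with sums of 16.6 to 33.96, 11.6 to 18.1, 23.4 to 49.6 and 28.4 to 55.0 TPM. Without beads, KO minus WT was below 0 for 6 of the 7 Treg and T cell markers, all but Entpd1. Their median log2(TPM + 1) difference was -0.76, beside -0.11 over all genes tested. After scaling to abundant genes it was -0.39, beside 0.12. None of the 7 had a limma adjusted p under 0.05. No marker listed was at 0 in all libraries of a group, and the part of these cells in the member values was not tested.

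Ctla4 (ENSMUSG00000026011) lies on chromosome 1 of mm10 at chr1:60887000-60915832 on the plus strand. It was the member with the highest level after stimulation, at 197 and 211 TPM in KO cells with beads and 165, 194 and 198 TPM in WT cells with beads. In unstimulated KO cells its lowest, median and highest values were 19.9, 23.9 and 51.6 TPM. The 4 unstimulated WT libraries had 95.9, 54.5, 52.4 and 62.9 TPM. In TPM every unstimulated KO library thus lay below every unstimulated WT library, with 51.6 against 52.4 TPM at the closest. The scale factor to abundant genes was 1.05 for the KO library at 51.6 TPM and 1.14 for the WT library at 54.5 TPM. Dividing by these factors puts that KO library above that WT library. With beads the 2 genotypes overlapped in TPM.

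Ctla4 rose with beads in both genotypes, and the levels with beads lay above all unstimulated levels in each, as for 11.2% of genes tested in KO cells and 8.61% in WT cells. In KO cells it averaged 204 ± 9.41 TPM with beads (SD, n = 2) and 27.5 ± 12.05 TPM without (SD, n = 6), a 7.42-fold ratio of means. In WT cells it averaged 186 ± 17.6 TPM with beads (SD, n = 3) and 66.4 ± 20.2 TPM without (SD, n = 4), a 2.80-fold ratio. On the log2(TPM + 1) scale the change was 2.93 in KO cells (limma, 95% interval 2.18 to 3.67, adjusted p = 0.000201) and 1.51 in WT cells (limma, 0.81 to 2.20, adjusted p = 0.00842). The difference between these changes was 1.42 (0.40 to 2.44), with a limma p of 0.00938 before and 0.999 after adjustment over 29989 genes. After scaling to abundant genes that difference was 0.94. The KO change was 2.73 without the 3 unstimulated KO libraries with over 50% of TPM in predicted genes (limma adjusted p = 0.00347). The difference between the changes was not called, and 1 gene was called in that comparison, or 0.00333% of those tested, while 4.16% had an unadjusted p under 0.05.

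Between the genotypes, Ctla4 differed by -1.28 without beads (limma, 95% interval -1.87 to -0.69) and did not pass the adjusted threshold of 0.05 (adjusted p = 0.123). The mean of the unstimulated KO libraries was 0.414 times that of the WT libraries. The unnumbered KO library, at 51.6 TPM, stood apart from the other 5 KO libraries, which spanned 19.9 to 25.4 TPM. Without it the difference was -1.47 and passed the threshold (limma adjusted p = 0.0176), and without both unnumbered libraries it was -1.29 (limma adjusted p = 0.0384). It was -1.08 without the 3 KO libraries with over 50% of TPM in predicted genes (limma adjusted p = 0.334) and -0.91 after scaling to abundant genes (limma adjusted p = 0.276). Over all alternatives the adjusted p of this difference ran from 0.0176 to 0.392. With beads the genotype difference was 0.14 (limma, -0.69 to 0.97, adjusted p = 1.00).

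**Figure D1:**
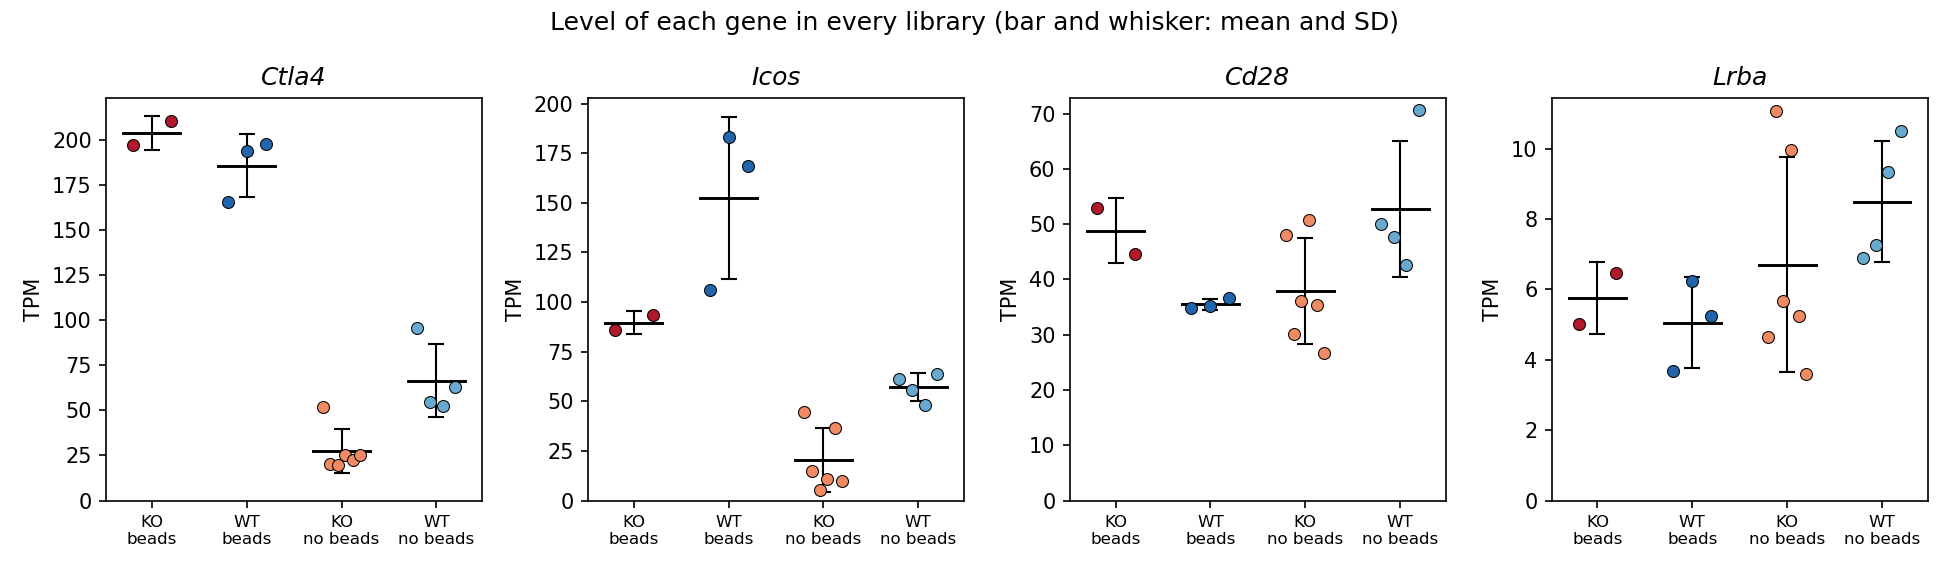
TPM (linear axis from 0) of Ctla4, Icos, Cd28 and Lrba by group, with KO left of WT, 1 point for each of the 15 libraries, a bar at the group mean and a whisker for its SD. Ctla4 and Icos stand higher with beads than without in both genotypes, and the unstimulated KO points of both genes lie below the unstimulated WT points.

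Icos (ENSMUSG00000026009), at chr1:60977927-61000320 on the same strand, lies next to Ctla4 in the receptor cluster. KO cells with beads had 85.7 and 93.7 TPM, against 106, 183 and 168 TPM in WT cells with beads. In unstimulated KO cells Icos had its lowest, median and highest values at 5.33, 12.8 and 44.6 TPM. The unstimulated WT libraries had 61.3, 55.6, 48.2 and 63.6 TPM. All KO libraries lay below all WT libraries in both conditions, and the unstimulated KO libraries were widely spread. The unnumbered library and library 4 had 44.6 and 36.7 TPM, and the other 4 lay between 5.33 and 14.7 TPM.

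With beads Icos rose in KO cells, by 2.44 on the log2(TPM + 1) scale (limma, 95% interval 1.21 to 3.67, adjusted p = 0.0167). Its means there were 89.7 ± 5.61 TPM with beads (SD, n = 2) and 20.3 ± 16.2 TPM without (SD, n = 6), a 4.41-fold ratio. This call rests on both KO libraries with beads: it was lost without library 4 (2.50, limma adjusted p = 0.133) and without library 5 (2.38, limma adjusted p = 0.177). Without the 3 KO libraries with over 50% of TPM in predicted genes it was 2.15 (limma adjusted p = 0.0245). In WT cells the means were 153 ± 40.8 TPM with beads (SD, n = 3) and 57.2 ± 6.85 TPM without (SD, n = 4), a 2.67-fold ratio. That difference, 1.37 (limma, 0.22 to 2.52), did not pass the threshold (adjusted p = 0.120). Fitted on the WT libraries alone it had the same size and passed (limma adjusted p = 0.0151). The difference between the genotypes in this response was 1.07 (limma, -0.62 to 2.76, adjusted p = 0.999).

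The genotype difference of Icos was -1.79 without beads (limma, 95% interval -2.77 to -0.82, adjusted p = 0.173) and -0.72 with beads (limma, -2.10 to 0.65, adjusted p = 1.00). Neither passed the threshold. In TPM, 2 of the 4 members had all unstimulated KO libraries below all WT libraries, Ctla4 and Icos, beside 1.27% of all genes tested. With beads 1 member, Icos, had this pattern, beside 8.02% of all genes tested. Scaling to abundant genes removed the pattern of unstimulated Ctla4.

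Cd28 (ENSMUSG00000026012), at chr1:60716800-60773359 on the plus strand, encodes the receptor that the beads engage. Cd28 had 53.0 and 44.7 TPM in KO cells with beads, against 34.8, 35.1 and 36.7 TPM in WT cells with beads. In unstimulated KO cells the lowest, median and highest values were 26.7, 35.7 and 50.8 TPM. Unstimulated WT libraries had 49.97, 47.6, 42.6 and 70.6 TPM. Both KO libraries with beads lay above all 3 WT libraries with beads, a pattern shared by 17.4% of genes tested, while without beads 4 of 6 KO libraries lay below all WT libraries and the groups overlapped.

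No Cd28 difference passed the threshold. It averaged 48.8 ± 5.87 TPM in KO cells with beads (SD, n = 2), 35.5 ± 0.996 TPM in WT cells with beads (SD, n = 3), 37.9 ± 9.62 TPM in unstimulated KO cells (SD, n = 6) and 52.7 ± 12.3 TPM in unstimulated WT cells (SD, n = 4). With beads against without, the log2(TPM + 1) difference was 0.39 in KO cells (limma, 95% interval -0.25 to 1.03, adjusted p = 0.500) and -0.53 in WT cells (limma, -1.13 to 0.07, adjusted p = 0.248). The KO value was -0.08 after scaling to abundant genes and -0.13 after quantile normalization. The WT libraries with beads lay below all unstimulated WT libraries, as for 20.9% of genes tested. The difference between the responses was 0.92 (95% interval 0.04 to 1.80), with a limma p of 0.0409 before and an adjusted p of 0.999. Scaling to abundant genes gave 0.44 for this difference and -0.11 for the genotype difference without beads. Between the genotypes Cd28 differed by 0.44 with beads (limma, -0.27 to 1.16, adjusted p = 1.00) and by -0.48 without (limma, -0.98 to 0.03, adjusted p = 0.470).

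Lrba (ENSMUSG00000028080) lies on chromosome 3, at chr3:86224680-86782692 on the plus strand, and had the lowest level of the members in 14 of 15 libraries; in unstimulated KO library 2 Icos was lower. Lrba had 5.03 and 6.47 TPM in KO cells with beads, against 3.68, 6.25 and 5.24 TPM in WT cells with beads. In unstimulated KO cells the lowest, median and highest values were 3.60, 5.46 and 11.1 TPM. Unstimulated WT libraries had 6.90, 7.25, 9.33 and 10.49 TPM. KO and WT overlapped in both conditions, and the WT libraries with beads lay below all unstimulated WT libraries, a pattern held by 20.9% of genes tested.

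No Lrba difference passed the threshold. With beads against without it was -0.11 in KO cells (limma, 95% interval -0.96 to 0.75, adjusted p = 0.912) and -0.65 in WT cells (limma, -1.46 to 0.15, adjusted p = 0.290). Between the genotypes it was 0.17 with beads (limma, -0.79 to 1.13, adjusted p = 1.00) and -0.37 without (limma, -1.05 to 0.30, adjusted p = 0.720). The difference between the responses was 0.55 (limma, -0.63 to 1.72, adjusted p = 0.999). On this scale a difference of 1 is a 2-fold change of TPM + 1. At the low level of Lrba, a 2-fold change of TPM itself is a smaller difference. The interval of the bead difference in KO cells stayed within 1 of 0 on both sides, but does not exclude a 2-fold fall of TPM. Each of the other intervals reached past 1 on 1 side, so a difference of that size in that direction stayed within it.

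**Figure D2:**
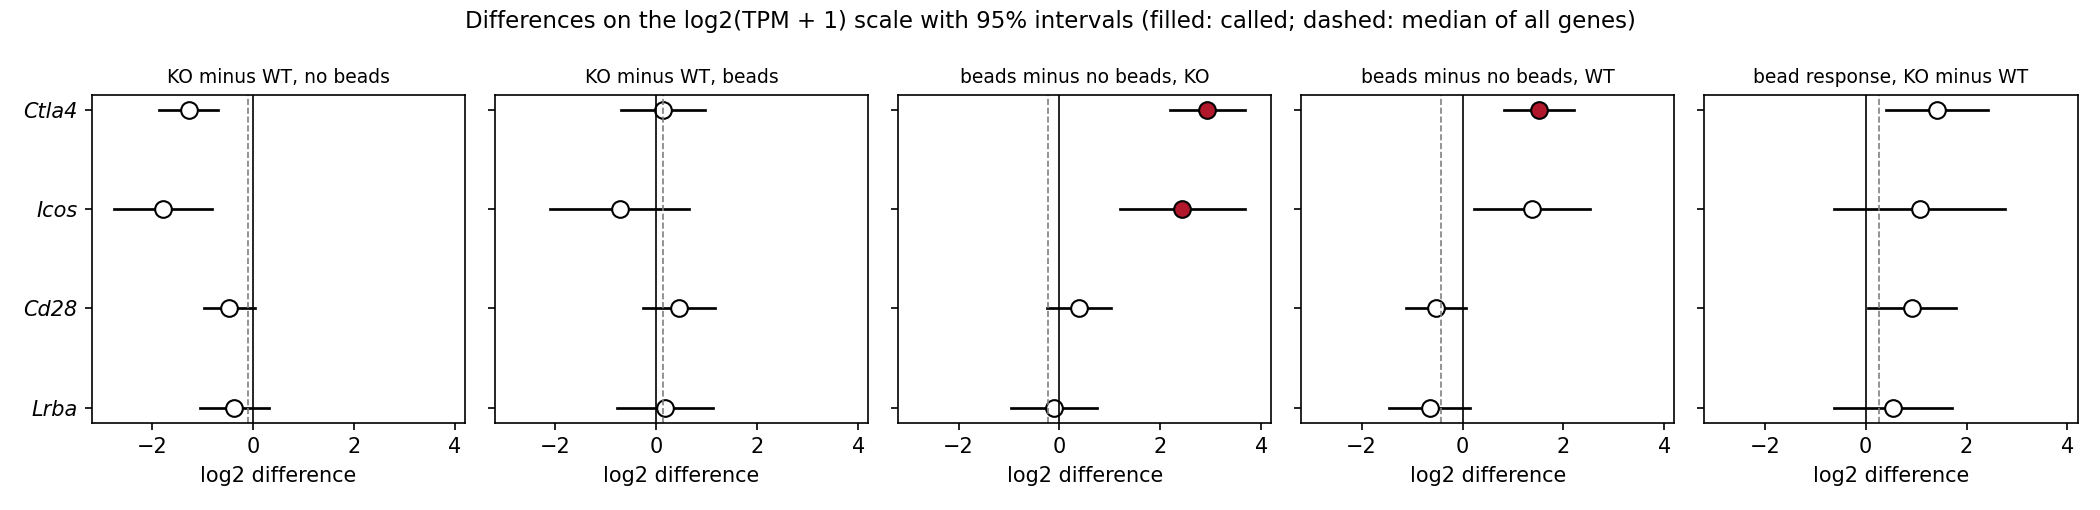
Differences on the log2(TPM + 1) scale for the 4 members in each comparison, with points for the limma estimate (filled where called), lines for its 95% interval and a dashed line at the median of all genes. The called differences are Ctla4 with beads in KO (2.93) and WT (1.51) cells and Icos with beads in KO cells (2.44).

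Over the members, 2 of 4 were called with beads in KO cells, both higher, where 8.11% of the 29989 genes tested were called, 5.95% higher and 2.15% lower. In WT cells 1 of 4 was called, higher, where 11.2% were called, 4.6% higher and 6.63% lower. Both were compared with unstimulated cells of their own genotype, so no library is in both differences. The estimate of spread behind their p-values was shared over all 15 libraries. None of the 4 was called between KO and WT cells, where 22 genes or 0.0734% were called without beads and 1 gene or 0.00333% with beads. At an unadjusted limma p under 0.05 the members were Ctla4 and Icos without beads, where 11.3% of genes tested passed, and none with beads, where 2.89% passed. Without KO bead library 4 or 5 the calls with beads in KO cells, 2431 genes with both, numbered 616 and 382. Over every gene tested the median difference was -0.23 with beads in KO cells, -0.44 with beads in WT cells, 0.13 between KO and WT cells with beads and -0.11 without beads. After scaling to abundant genes these medians were -0.46, -0.43, 0.07 and 0.12.

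In all 5 libraries with beads the TPM ran Ctla4, Icos, Cd28 and Lrba from high to low. Cd28 was highest in 4 of the 6 unstimulated KO libraries, Ctla4 in 1 and Icos in 1, and none of the 6 had the order seen with beads. Of the 4 unstimulated WT libraries 2 had that order, and Icos was highest in 1 and Cd28 in 1. Ctla4 stood among the top 1.77 to 1.80% of the shared genes in KO cells with beads, 1.85 to 2.21% in WT cells with beads, 5.18 to 11.6% in unstimulated KO cells and 2.83 to 5.66% in unstimulated WT cells. Icos stood within the top 3.89 to 4.02%, 2.15 to 3.39%, 5.97 to 32.6% and 4.35 to 5.57% in the same groups. Cd28 kept between the top 4.98% and 9.51% in every library, and Lrba between 20.5% and 39.0%. In the beads groups Ctla4 and Icos did not overlap in KO cells but did in WT cells, where Icos reached 183 TPM and Ctla4 began at 165 TPM.

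A ratio of 2 members' TPM within a library does not depend on how that library was scaled. The tests used the log2 ratio of TPM + 1, where a difference shows unequal change and not which gene changed. The Ctla4 to Cd28 ratio of TPM was 3.72 and 4.71 in KO cells with beads and 4.75 to 5.52 in WT cells with beads, against 0.500 to 1.07 and 0.890 to 1.92 in unstimulated KO and WT cells. The log2 ratio was higher with beads by 2.54 in KO cells (exact permutation p = 0.0357, the smallest possible) and by 2.04 in WT cells (exact permutation p = 0.0286, the smallest possible). Without beads it was lower in KO cells by 0.80 than in WT cells (exact permutation p = 0.0190), and with beads the difference was -0.30 (exact permutation p = 0.2).

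The Icos to Cd28 ratio was 1.62 and 2.10 in KO cells with beads, 3.05 to 5.21 in WT cells with beads, 0.148 to 1.04 in unstimulated KO cells and 0.900 to 1.23 in unstimulated WT cells. KO minus WT was -1.31 without beads (exact permutation p = 0.0476) and -1.17 with beads (exact permutation p = 0.1, the smallest possible) in log2 ratio. Beads minus unstimulated was 2.05 in KO cells (exact permutation p = 0.0714) and 1.90 in WT cells (exact permutation p = 0.0286). The Ctla4 to Lrba ratio was 32.5 and 39.2 in KO cells with beads, 31.1 to 44.9 in WT cells with beads, 1.83 to 11.1 in unstimulated KO cells and 5.62 to 13.9 in unstimulated WT cells. Its bead differences were 3.04 in KO cells (exact permutation p = 0.0357) and 2.16 in WT cells (exact permutation p = 0.0286), and its genotype differences -0.03 with beads (exact permutation p = 0.9) and -0.91 without (exact permutation p = 0.110). Over the 12 two-sided ratio tests no adjusted p was under 0.05, the lowest being 0.0714.

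**Figure D3:**
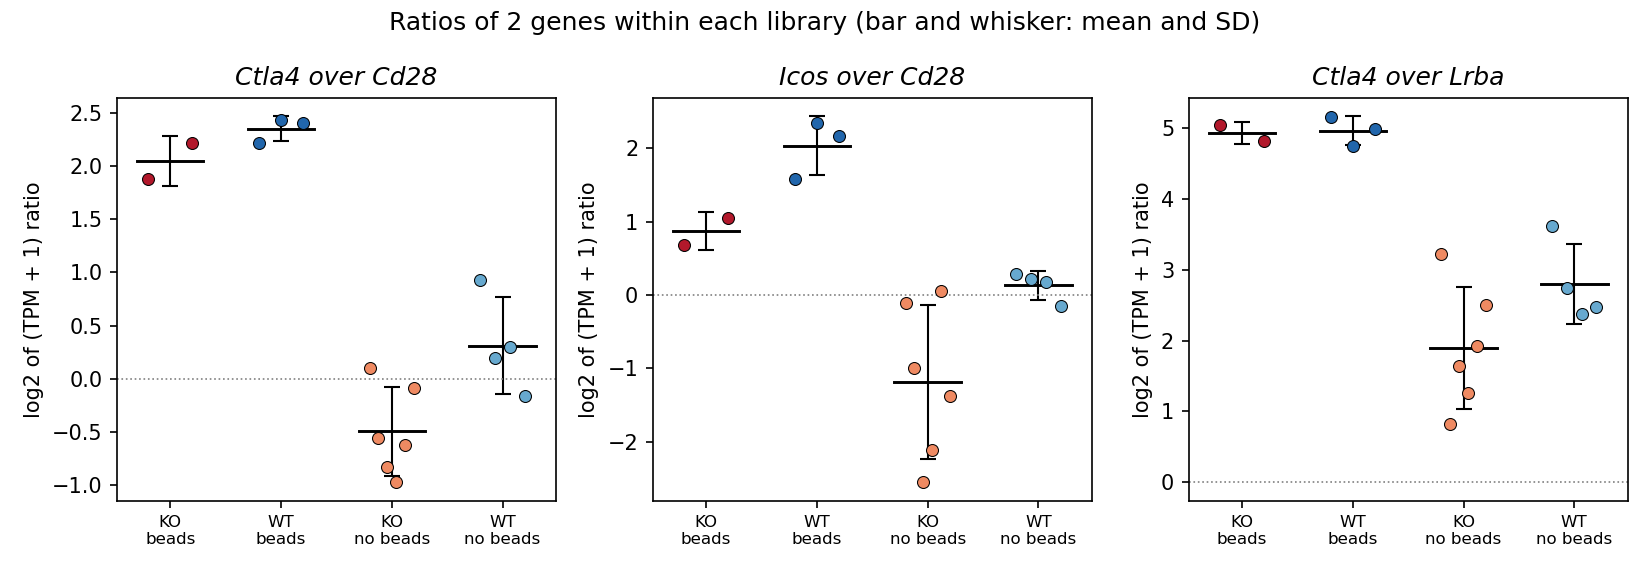
Log2 of the ratio of TPM + 1 of 2 members within each library, by group with KO left of WT, 1 point per library, a bar at the group mean and a whisker for its SD. The points of Ctla4 over Cd28 and over Lrba lie higher in all libraries with beads than in all unstimulated libraries, where the TPM ratios are 3.72 to 5.52 against 0.500 to 1.92 and 31.1 to 44.9 against 1.83 to 13.9.

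The other receptors and ligands of the family were taken as a list of 10 genes tested, Ctla4, Icos and Cd28 among them. With beads 6 of 10 rose and none fell in KO cells, beside 5.95% and 2.15% of all genes tested. In WT cells 4 of 10 rose and none fell, beside 4.6% and 6.63%. The list medians were 2.18 and 0.58 on the log2(TPM + 1) scale, beside -0.23 and -0.44 over all genes. Quantile normalization gave 5 and 4 that rose, none falling. Pdcd1lg2, which encodes the PD-1 ligand PD-L2, rose by 2.57 in KO cells (limma adjusted p = 0.00606) and by 2.53 in WT cells (limma adjusted p = 0.00405). Btla, an inhibitory receptor for HVEM, rose by 2.46 in KO cells (limma adjusted p = 0.00241) and by 2.00 in WT cells (limma adjusted p = 0.00531). Cd274, which encodes PD-L1, rose by 1.91 in KO cells (limma adjusted p = 0.00765) and by 1.51 in WT cells (limma adjusted p = 0.0169). Pdcd1, which encodes the inhibitory receptor PD-1, rose by 2.63 in KO cells (limma adjusted p = 0.00773) and was not called in WT cells (-0.71, limma adjusted p = 0.408). It was also the 1 gene of the list called between the genotypes, at 2.26 to 16.2 TPM in unstimulated KO cells, against 30.8 to 94.5 TPM in unstimulated WT cells (limma log2 difference -3.16, adjusted p = 0.0185). The bead change of Pdcd1 in KO cells and that genotype difference share the unstimulated KO libraries. The difference between these responses was 3.34 (limma adjusted p = 0.581). Cd80, Cd86 and Icosl, the ligands of the 3 receptors, were called in no comparison. None of the list was called between the genotypes with beads, and none had an unadjusted limma p under 0.05 there, beside 2.89% of all genes tested. Without beads the list's median between KO and WT cells was -0.34, beside -0.11 over all genes, and 0.00 beside 0.12 after scaling to abundant genes.

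The proteins that move or degrade CTLA-4, with other BEACH proteins, made a list of 22 genes tested, Lrba included. With beads 1 rose and 3 fell in KO cells, beside 5.95% and 2.15% of all genes tested. In WT cells 1 rose and 4 fell, beside 4.6% and 6.63%. The list medians were -0.08 and -0.62, beside -0.23 and -0.44 over all genes. After quantile normalization 1 rose and 3 fell in KO cells, and 1 rose and 1 fell in WT cells. Arf1, a small GTPase that recruits coats to Golgi membranes, rose by 1.68 in KO cells (limma adjusted p = 0.00283) and by 1.37 in WT cells (limma adjusted p = 0.00597). Ap1g1, the gamma subunit of the AP-1 adaptor that carries CTLA-4 from the Golgi toward lysosomes, fell by 1.38 in KO cells (limma adjusted p = 0.0411) and by 3.25 in WT cells (limma adjusted p = 0.000152). Nbeal1, a BEACH relative of LRBA, fell by 1.27 in KO cells (limma adjusted p = 0.0488) and by 1.58 in WT cells (limma adjusted p = 0.00947). The phospholipase D gene Pld1 fell by 1.28 in KO cells (limma adjusted p = 0.0482), and Pld2 fell by 1.53 in WT cells (limma adjusted p = 0.0256). No gene of this list was called between the genotypes. Beside 2.89% of all genes tested with beads and 11.3% without, 1 and 4 of the list had an unadjusted limma p under 0.05. Its most abundant genes there were Arf1, Trat1 and Rab11b. Trat1, whose product TRIM helps bring CTLA-4 to the surface, was at 97.7 and 115 TPM in KO cells with beads, against 105 to 180 TPM in WT cells with beads, and at 17.2 to 106 TPM in unstimulated KO cells, against 53.9 to 125 TPM in unstimulated WT cells. Rab11b, a recycling endosome GTPase, was at 99.5 and 119 TPM in KO cells with beads, against 99.0 to 102 TPM in WT cells with beads, and at 30.8 to 78.6 TPM in unstimulated KO cells, against 73.0 to 196 TPM in unstimulated WT cells. The groups of both genes overlapped in each condition.

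Genes of the signalling chain below CD28, ICOS and CTLA-4 made a list of 25 tested. With beads 2 rose and none fell in KO cells, beside 5.95% and 2.15% of all genes tested. Ppp2r1a, a scaffold subunit of the phosphatase PP2A, rose by 1.51 (limma adjusted p = 0.0350). None of the list was called in KO cells after scaling to abundant genes, where Ppp2r1a was at 1.04 (limma adjusted p = 0.0738), or after quantile normalization, where it was at 0.97. In WT cells none rose and 1 fell, beside 4.6% and 6.63% of all genes tested. The gene that fell was Prkcq, the kinase PKC theta, by 1.14 (limma adjusted p = 0.0184). None was called between the genotypes. Beside 2.89% of all genes tested with beads and 11.3% without, 0 and 5 of the list had an unadjusted limma p under 0.05. Lck, the most abundant of them and the kinase that starts receptor signalling, was at 277 and 282 TPM in KO cells with beads, against 207 to 258 TPM in WT cells with beads, and at 121 to 232 TPM in unstimulated KO cells, against 141 to 341 TPM in unstimulated WT cells. The list's median without beads was -0.40, and -0.07 after scaling to abundant genes.

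Regulators of Ctla4 and Icos made a list of 13 tested: 8 transcription factors, the RNA-binding proteins or RNases encoded by Rc3h1, Rc3h2 and Zc3h12a, and the ubiquitin ligases encoded by Cbl and Cblb. With beads 3 rose and none fell in KO cells, beside 5.95% and 2.15% of all genes tested. In WT cells 3 rose and 1 fell, beside 4.6% and 6.63%. After quantile normalization 3 rose and 1 fell in KO cells, and 2 rose and none fell in WT cells. Irf4, a factor induced by antigen receptor signals, rose by 5.16 in KO cells (limma adjusted p = 2.26e-05) and by 5.53 in WT cells (limma adjusted p = 7.5e-06). Batf, its AP-1 partner, rose by 3.41 in KO cells (limma adjusted p = 0.00458) and by 3.65 in WT cells (limma adjusted p = 0.00187). Foxp3, the factor that defines Treg cells, rose by 1.72 in KO cells (limma adjusted p = 0.0137) and by 1.203 in WT cells (limma adjusted p = 0.0479), where quantile normalization gave 0.90 and no call. Bcl6, a repressor that directs follicular T cells, fell by 1.42 in WT cells (limma adjusted p = 0.0490), a call lost after quantile normalization (-0.79). No gene of this list was called between the genotypes. Beside 2.89% of all genes tested with beads and 11.3% without, 3 and 2 of the list had an unadjusted limma p under 0.05. Batf was at 76.6 and 90.4 TPM in KO cells with beads, against 258 to 425 TPM in WT cells with beads, and Foxp3 at 42.2 and 42.7 TPM, against 88.6 to 106 TPM. Without beads the Foxp3 difference was -1.71 (limma adjusted p = 0.0646). By the design KO cells read Foxp3 from the allele that carries the YFP-Cre insertion. Whether the insertion or Dock8 bears on the Foxp3 level was not tested.

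**Figure D4:**
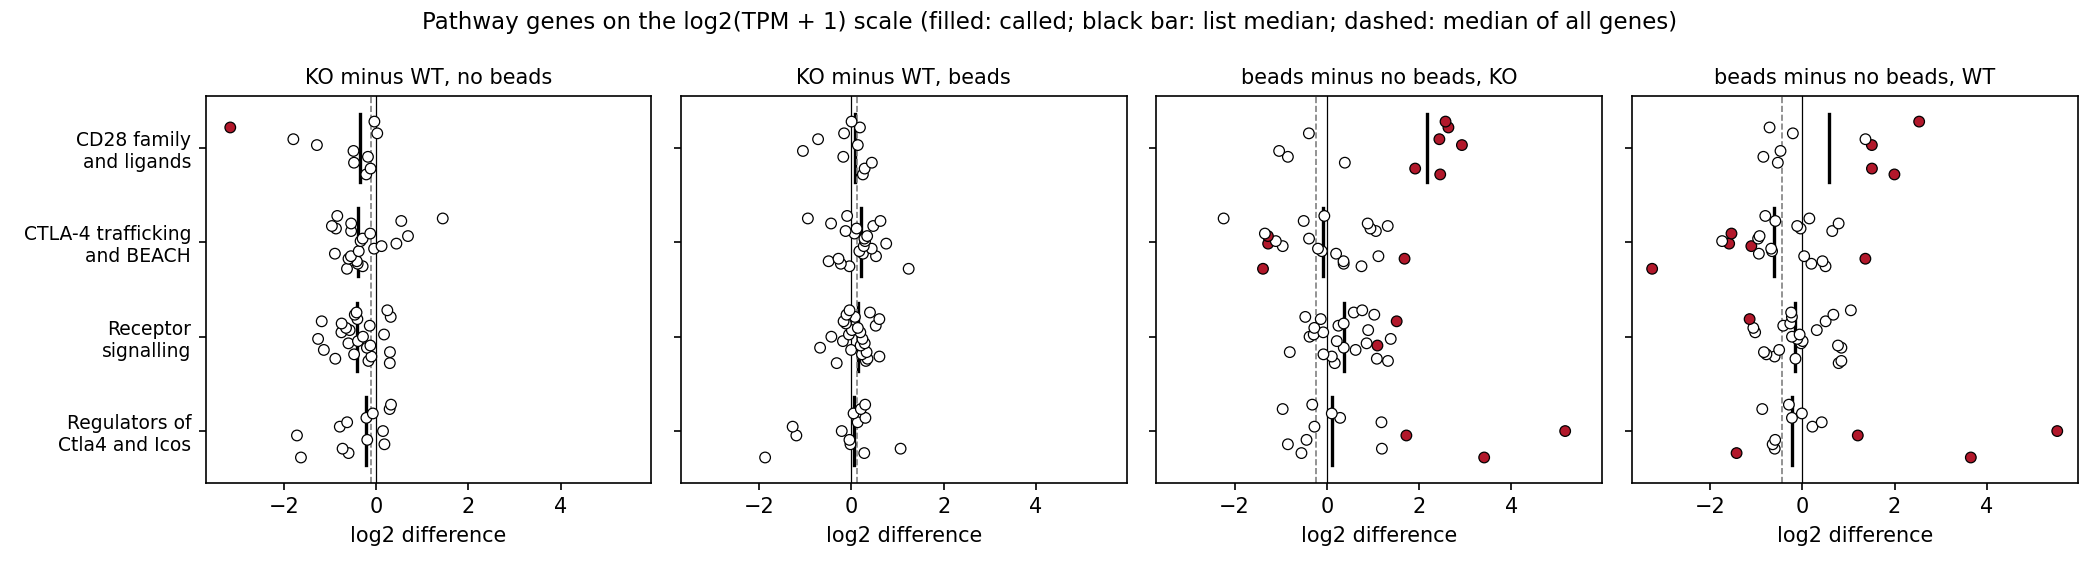
Differences on the log2(TPM + 1) scale for the genes of the 4 lists in each comparison, 1 point per gene, with filled points for genes called at an adjusted p under 0.05 a black bar at the list median and a dashed line at the median over all genes tested. With beads the family list has 6 called genes in KO and 4 in WT cells, all higher, and the trafficking list has genes called on both sides of 0.

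Promoter sequence is shown for Ctla4, which rose with beads in both genotypes, and for Lrba, which was called in neither. Promoter sequence for Icos and Cd28 was not available here. Each window is given as in RefSeq's GRCm38.p6: 300 bases on the plus strand, 250 before the RefSeq start and 50 from it. Capitals mark each match of GGAAA, the core letters of sites for NFAT factors, on either strand, so that TTTCC is a match on the minus strand. The Ctla4 window is chr1:60908775-60909074 and the Lrba window chr3:86224440-86224739. The Ctla4 window lies inside the Ctla4 interval given above, which begins upstream of the RefSeq start used here.
Ctla4: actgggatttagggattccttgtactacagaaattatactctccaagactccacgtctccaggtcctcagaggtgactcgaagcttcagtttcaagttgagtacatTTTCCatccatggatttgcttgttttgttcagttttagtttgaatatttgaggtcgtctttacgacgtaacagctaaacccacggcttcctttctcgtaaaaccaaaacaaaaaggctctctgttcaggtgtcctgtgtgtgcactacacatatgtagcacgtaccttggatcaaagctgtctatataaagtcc
Lrba: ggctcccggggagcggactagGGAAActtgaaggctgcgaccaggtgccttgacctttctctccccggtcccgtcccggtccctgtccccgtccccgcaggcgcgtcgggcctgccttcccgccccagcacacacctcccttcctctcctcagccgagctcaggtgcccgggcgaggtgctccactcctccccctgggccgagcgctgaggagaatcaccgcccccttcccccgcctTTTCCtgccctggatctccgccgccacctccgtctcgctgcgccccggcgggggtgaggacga
The Ctla4 window held 1 match, from base -144 to -140 relative to the start, and the Lrba window 2, from -229 to -225 and from -13 to -9. Of 32851 RefSeq mouse promoters of this length, 61.3% held GGAAA on at least 1 strand. Neither window held the AP-1 motif TGANTCA or the forkhead motif GTAAACA on either strand, which were in 7.81% and 3.65% of promoters, and the 3 motifs do not contain one another. The windows differed in composition, with 42% G and C and 8 CpG in Ctla4 and 71.7% and 27 in Lrba. A match is a description of letters, and binding was not measured here.

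Over all 15 libraries, the genes whose log2(TPM + 1) pattern lay nearest to each member were ranked among genes averaging 20 TPM or more, by the root mean square of the difference between the 2 centred patterns. Nearest to Ctla4 were Ptprcap (0.206), Pfn1 (0.263) and Cd2 (0.276), and Icos ranked 596 (0.625). Nearest to Icos were Ndufb9 (0.439), Mydgf (0.543) and Rps19bp1 (0.554), with Ctla4 at rank 30. Cd28 was closest to Tbc1d10c (0.195), Rbm39 (0.203) and Laptm5 (0.203). Lrba was closest to Senp1 (0.269), Krit1 (0.298) and Sema4d (0.304), with Cd28 at rank 46. These distances describe the 15 libraries, which share group and scaling.

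Other annotated genes overlap 3 of the members, and whether the counting used strand is not given in the sources used here. Rpl18-ps1, a ribosomal protein pseudogene, lies inside the Ctla4 interval and upstream of the RefSeq start. It was listed at 16.1 to 47.8 TPM in KO cells with beads and 0 to 59.2 TPM in WT cells with beads. It was at 0 in all unstimulated KO libraries and up to 96.3 TPM in unstimulated WT cells. Gm37039, which overlaps Icos on the same strand, was listed at 7.87 to 8.66, 4.77 to 8.04, 11.9 to 21.6 and 8.06 to 23.7 TPM in those groups. Of the genes within Lrba, those with a listed level were Mab21l2, Gm3788 and Gm37876, all on the minus strand, opposite to that of Lrba. Gm3788, a processed pseudogene, was listed at 0 to 126, 139 to 165, 0 to 139 and 0 to 230 TPM in those groups. Mab21l2 and Gm37876 reached at most 1.51 and 2.11 TPM. How reads were divided between these genes and the members is uncertain.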

How the data were processed

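The authors deposited 1 table per library of TPM per Ensembl gene, already normalized to length and library. Tools named in the submitters' processing notes are STAR, Salmon and DESeq2, with the mm10 build; versions and roles are not stated there. Symbols came from GENCODE annotation in 30788 of 30949 shared genes. TPM were not rescaled, and sums over all genes listed for a library were 819697 to 938139.

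Groups came from the labels, which leave 1 KO and 1 WT library without a number. The 29989 genes reaching 1 TPM in 2 or more libraries entered 1 fit of log2(TPM + 1), limma 3.58.1 in R 4.3.3 with trend, 1 mean per group over all 15 libraries; p-values were adjusted over all genes tested (Benjamini-Hochberg) and called under 0.05. The fit was tested on simulated data. Ratios and Dock8 were compared by exact two-sided permutation tests.

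The members and gene lists were chosen with earlier results of these data known. The rule for names took up to 4 called genes with the smallest p from each list and comparison, or the 3 most abundant where none was called, and the 3 genes nearest to each member in pattern; Cd80, Cd86 and Icosl were added after their values were seen. Of the genes the rule names, 1 is not reported here. Alternatives changed the pseudocount, filter, scaling and libraries fitted; leaving out the KO libraries with over 50% predicted genes was chosen after seeing the data.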

Additional observations from a re-analysis of the deposited data

Results flagged for a closer look

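In each of the 2 unstimulated groups 8 measures, which share libraries and genes, were tested for a single library far from the rest. Of these 16 tests 1 stood out, and chance gives about 1 in 20. It was Ctla4 in unstimulated KO cells, where the unnumbered library had 51.6 TPM and the next highest 25.4 TPM. The same library had the highest Icos of its group, 44.6 TPM.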

How the results depend on the processing

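Ctla4 rose with beads in both genotypes under every setting run (19 settings in KO cells and 17 in WT cells, the main one included). The Icos call with beads in KO cells was lost under quantile normalization (2.03), in a fit of only the groups compared (2.44), with the title number as a replicate block (2.17) and without either KO library with beads (leave-one-out range 2.16 to 2.73). The Icos value with beads in WT cells passed in a fit of only the groups compared (1.37), and Ctla4 between the unstimulated genotypes passed without the 2 unnumbered libraries (-1.29; leave-one-out -1.47 to -1.09). Cd28 with beads in KO cells, 0.39 in the main fit, changed sign with the normalization (scaled -0.0823, quantile -0.134). Values near 0 also changed sign: Lrba with beads in KO cells (quantile 0.0315, replicate block 0.32, leave-one-out -0.26 to 0.0471), Lrba between genotypes with beads (quantile -0.034, leave-one-out -0.00237 to 0.33), and the Ctla4 to Lrba log2 ratio there (0.0334 with a pseudocount of 5, leave-one-out -0.14 to 0.0743). Dock8 without beads was -0.32 when scaled (leave-one-out -0.85 to -0.46). The cause was not tested.

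Genes called between unstimulated genotypes, 22, were 8 and 13 with pseudocounts of 0.1 and 5, 8 scaled, 7 with quantile normalization, 4 with only the groups compared, 2 with the replicate block, 43 without the unnumbered libraries, 4 without the KO libraries with over 50% predicted genes, and 5 to 67 leaving out 1 library, within 1.5 times of 22 only without KO library 3 (31) or 5 (18). With beads the count of 1 was 2 and 0 with those pseudocounts, 0 scaled, 19 with only the groups compared and 0 to 3 leaving out 1 library. Calls with beads in WT cells, 3366, were 2097 with quantile normalization and 1654 to 3393 leaving out 1 library, with 1736, 1862 and 1654 without bead library 1, 2 and 3. In KO cells, 2431 became 1315 with only the groups compared, 1136 with the replicate block and 382 to 2715 leaving out 1 library, with 616 and 382 without bead library 4 and 5. For the response difference, 1 became 3 and 0 with those pseudocounts, 2 with a 5 TPM filter, 0 scaled, with quantile normalization or with the block, 5 without the unnumbered libraries, 6 without the KO libraries with over 50% predicted genes and 0 to 6 leaving out 1 library.

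Whether equal title numbers pair the samples is not known. Same-number deviations of KO and WT unstimulated libraries correlated at -0.00872 to 0.0677 over genes (3 pairs), and other pairs at -0.18 to 0.14. So few pairs, centred within small groups, cannot decide the question, and the block is only a setting here. The 2 KO libraries with beads and the unknown depth limit all KO values with beads. With 1 KO library with beads left, that library is assumed to vary like the other groups.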

Other observations

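Many genes are listed near the receptor cluster on chromosome 1, and 2 of them are given here, chosen after their values were seen. 2310016D23Rik, a long noncoding RNA gene between Cd28 and Ctla4, was listed at 2.53 to 7.09 TPM in KO cells with beads, 0 in all WT libraries with beads, 0 to 11.6 TPM in unstimulated KO cells and 0 to 3.20 TPM in unstimulated WT cells. Eif4a-ps4, a pseudogene upstream of Cd28, was listed at 20.2 to 62.9 TPM in KO cells with beads, 42.3 to 94.6 TPM in WT cells with beads, 0 to 12.6 TPM in unstimulated KO cells and 0 to 10.52 TPM in unstimulated WT cells.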
